A study of Rattus norvegicus with 29 samples.

Results

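A small set of transcripts was several times higher after 24 h of TCDD in rat kidney tubule cells. By the measure that chose it, the set stayed near control with acetaminophen, gentamicin and trichloroethylene. Its 21 members, of 28420 transcripts in the deposited tables, were chosen by their measured values. For each compound at 24 h, L was taken as log2 of (mean TPM with compound + 1) divided by (mean TPM in control + 1), where TPM is a relative transcript abundance scaled to transcript length. A member had a mean of 1 to 500 TPM over the 5 control libraries, an L of at least 1.2 for TCDD and an L between -0.5 and 0.5 for each of the other 3 compounds. The rule would have kept at most 150 transcripts, and all 21 that met it were kept. They are called here by their rank in L for TCDD, from rank 1 (L = 2.48) to rank 21 (L = 1.23).

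The cells were primary renal proximal tubule epithelial cells from Rattus norvegicus, sampled 6 h and 24 h into the exposure. Cultures were controls or received acetaminophen (an analgesic), gentamicin (an aminoglycoside antibiotic), 2,3,7,8-Tetrachlorodibenzodioxin (TCDD) or trichloroethylene (an industrial solvent). The 10 groups held 3 libraries each, but for the 6 h control with 2 (replicates 2 and 3). The sources used here give no dose, vehicle or animal age. They also leave unsaid whether replicates are independent preparations, and a p-value therefore reflects the scatter of these libraries alone, which may be technical. The 29 libraries held between 8243698 and 11446612 estimated counts. The tables name transcripts by identifier without gene names, and the reference table used here matched 0 of the 21 members, so neither the genes nor the cell type's markers could be checked, and no sequence is shown.

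TCDD is a dioxin, a persistent pollutant that binds the aryl hydrocarbon receptor, a transcription factor held in the cytoplasm until a ligand binds it. The bound receptor enters the nucleus, pairs with its partner ARNT and switches on genes for drug-metabolising enzymes, among other targets. The proximal tubule takes up many drugs and toxicants from blood and filtrate and carries enzymes of this kind. Which members, if any, belong to that receptor's targets cannot be read from the identifiers.

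Of 13730 transcripts with a control mean of 1 to 500 TPM, 614 had an L of at least 1.2 for TCDD. Among those 614, the rule's limit of 0.5 was kept by 165 for acetaminophen, 217 for gentamicin and 140 for trichloroethylene, and by the 21 members for all 3 compounds. The comparisons share the 3 controls of 24 h, so these counts describe the rule and not a likeness between compounds. The same form of rule kept 126 transcripts raised by acetaminophen alone, 100 by gentamicin alone and 5 by trichloroethylene alone. At the edge of the rule, the lowest members had L for TCDD of 1.25, 1.24 and 1.23, and the nearest transcripts below the threshold had 1.17, 1.16 and 1.16. The largest L of another compound inside the rule was 0.47 in size, while transcripts just outside had 0.50, 0.51 and 0.52, with L for TCDD of 2.72, 1.96 and 2.29. A further 57 transcripts met the criteria on L with a control mean under 1 TPM, and 23 of them had no count in any control; above 500 TPM there was none.

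**Figure D1:**
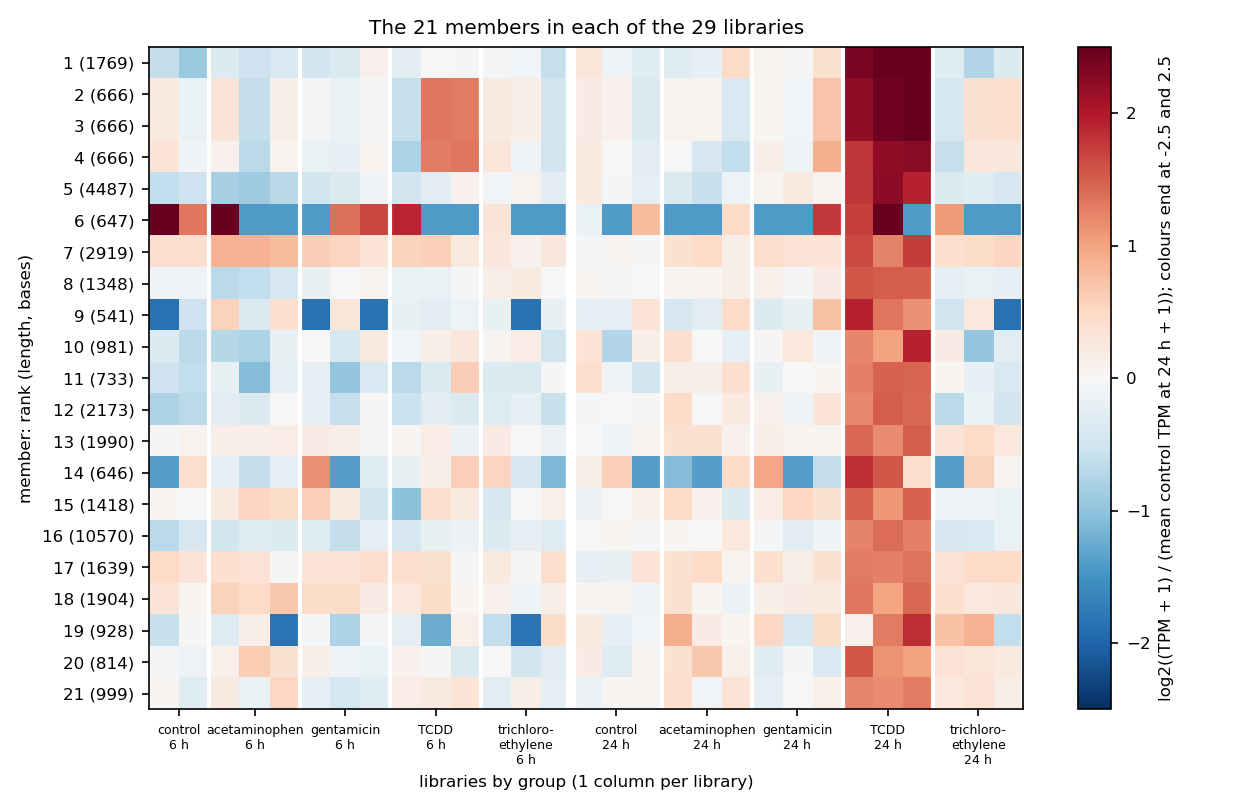
Level of each member (rows, with rank and length in bases) in each of the 29 libraries (columns, by group), as log2 of TPM + 1 relative to the mean control at 24 h. The 3 TCDD libraries of 24 h are high for most members, ranks 6, 14 and 19 are uneven within groups, and ranks 2 to 4 are also high in TCDD replicates 2 and 3 at 6 h.

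These values chose the members, so what follows at 24 h is a description without a test. Each library was made from many cells, so more RNA per cell and more cells of a kind cannot be told apart. In 18 of the 21 members, every TCDD library of 24 h lay above every control of 24 h, a pattern found in 19.8% of the 15990 transcripts tested. In the same 18, the TCDD libraries also lay above all 26 other libraries of the study, which held for 4.18% of the tested transcripts. The median ratio of mean TPM between TCDD and control at 24 h was 3.41 over the members, from 2.42 to 6.20. Medians of L at 24 h were 1.40 for TCDD, 0.10 for acetaminophen, 0.15 for gentamicin and -0.04 for trichloroethylene. Over the 13730 transcripts in the same control range, the medians were -0.40, 0.10, -0.22 and 0.01. On the TPM scale the typical transcript was thus lower with TCDD, and relative to that shift of -0.40 the members stood higher than L alone shows. For gentamicin the shift was -0.22, so relative to it the members also stood higher than their median L of 0.15.

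The member with the largest L, ENSRNOT00000020690 (rank 1, 1769 bases), was a low-level transcript in all groups but one. In the controls of 24 h it measured 9.30, 6.85 and 5.78 TPM, and with TCDD 42.0, 46.7 and 47.4 TPM. These are means of 7.31 ± 1.81 and 45.4 ± 2.96 TPM (SD, n = 3 each). The groups did not overlap, and no library of another group exceeded the 10.7 TPM of acetaminophen replicate 3 at 24 h. With trichloroethylene at 24 h it was 5.10 ± 0.960 TPM (SD, n = 3), an L of -0.45 and close to the lower limit of the rule. Its controls were also lower at 6 h, at 4.48 and 3.38 TPM.

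The 3 most abundant members, ranks 2 to 4, were all 666 bases long and moved together. ENSRNOT00000070969 (rank 2) and the transcript of rank 3 had identical values in every library, so the members hold 20 distinct profiles. The counts of ranks 2 and 3 were not whole numbers: reads that match several transcripts had been divided between them, and these copies cannot be told apart here. The counts of rank 4 lay close to whole numbers, as with 1111, 1083 and 982.993 in the controls of 24 h. In the controls of 24 h ENSRNOT00000070969 measured 476, 443 and 320 TPM, and with TCDD 1934, 2244 and 2367 TPM. The rank 4 transcript had 428, 371 and 307 TPM in control and 1267, 1711 and 1764 TPM with TCDD. For both, the lowest TCDD library was far above the highest control. Summed, the 3 transcripts reached 5944 ± 716 TPM with TCDD at 24 h (SD, n = 3) beside 1194 ± 223 TPM in control. They made up 86.6% to 89.2% of the members' summed TPM in the TCDD libraries of 24 h and 78.4% to 83.6% in the controls of that time. Without them, the other 18 members summed to 782 ± 14.9 TPM with TCDD and 260 ± 10.9 TPM in control at 24 h.

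The 3 transcripts were uneven within other groups too. With gentamicin at 24 h, ENSRNOT00000070969 had 430, 394 and 677 TPM, with replicate 3 above the others, and with trichloroethylene 305, 535 and 543 TPM, with replicate 1 below. The summed TPM of the other 18 members at 24 h stayed between 272 and 303 with gentamicin and between 269 and 283 with trichloroethylene. Among the tested transcripts, 6 others followed the profile of ENSRNOT00000070969 over the 29 libraries at r of at least 0.9 on log2(TPM + 1). The list was drawn up after its values were seen, and r is a description over libraries that share depth and read assignment. The members of ranks 3 and 4 were among them (r = 1 and 0.98). Of the rest, 3 transcripts of 411 bases were identical to each other (r = 0.98), and 1 had 798 bases (r = 0.94). For TCDD these had L of 2.63 (411 bases) and 3.19 (798 bases), and for gentamicin 0.64 and 0.92, beyond the limit of 0.5.

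**Figure D2:**
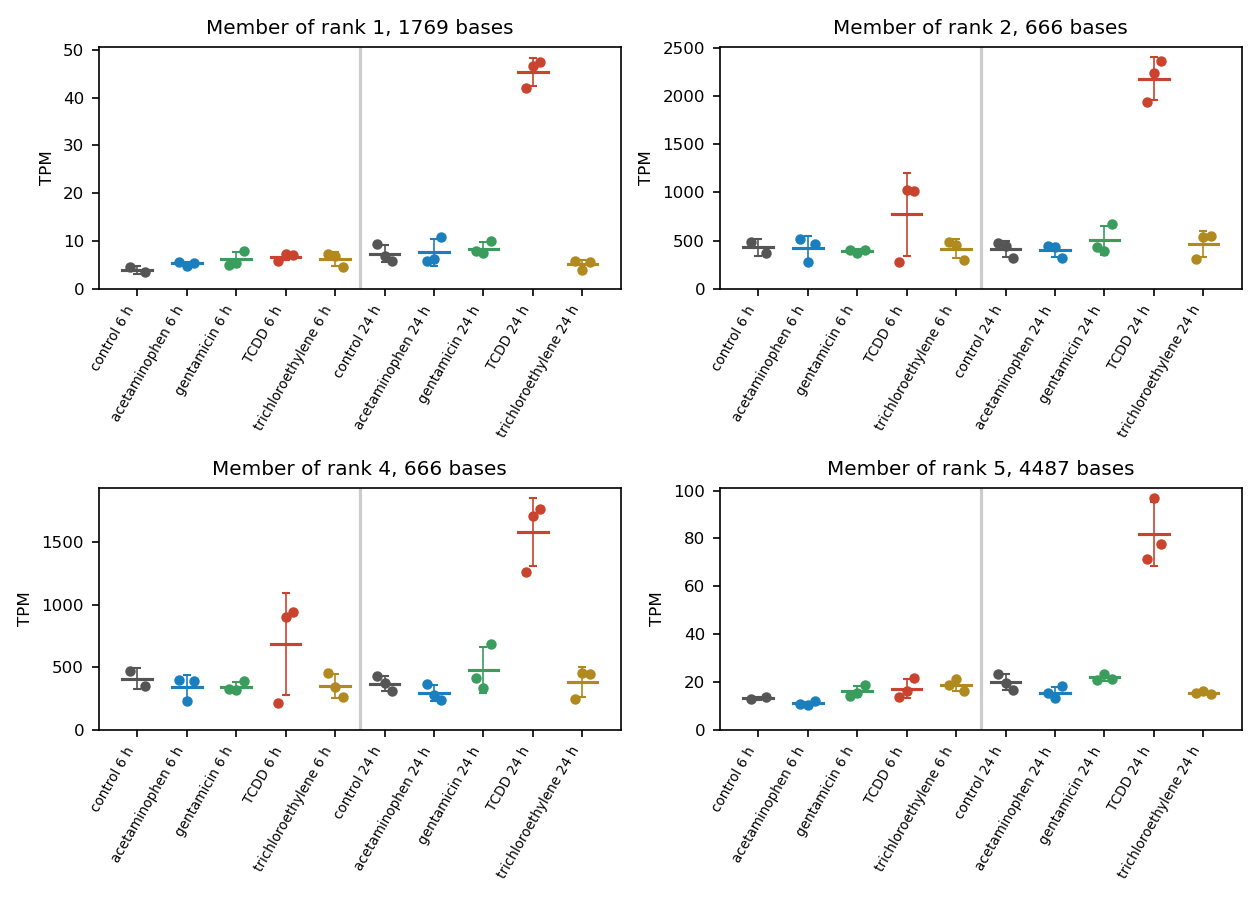
TPM of the members of ranks 1, 2, 4 and 5 in every library (points), with group mean (line) and SD (bar), at 6 h (left of the grey line) and 24 h (right). TCDD at 24 h is the highest group in each panel, and the TCDD group of 6 h splits into 1 low and 2 high libraries for ranks 2 and 4.

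A long transcript, ENSRNOT00000019703 (rank 5, 4487 bases), was higher with TCDD by a similar factor. It measured 23.5, 19.5 and 16.6 TPM in the controls of 24 h and 71.2, 96.7 and 77.8 TPM with TCDD, without overlap. Acetaminophen (15.5 ± 2.42 TPM) and trichloroethylene (15.3 ± 0.626 TPM) lay below the control mean of 19.9 ± 3.43 TPM, and gentamicin at 21.8 ± 1.29 TPM lay within its spread (SD, n = 3 each).

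ENSRNOT00000011855 (rank 8, 1348 bases) had close replicates in both groups. It measured 94.6, 89.6 and 91.2 TPM in the controls of 24 h and 269, 263 and 261 TPM with TCDD. Acetaminophen, gentamicin and trichloroethylene stood at 98.3 ± 3.28, 98.7 ± 8.59 and 80.0 ± 1.55 TPM at that time (SD, n = 3 each). The TCDD mean of 265 ± 4.37 TPM was 2.88 times the control mean of 91.8 ± 2.51 TPM, and the groups were far apart.

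Among the other members of middle level, TCDD at 24 h was between 2.42 and 3.00 times control. Rank 7 (2919 bases) stood at 111 ± 19.4 TPM beside 37.1 ± 1.57 TPM in control, and rank 20 (814 bases) at 65.7 ± 13.7 beside 27.2 ± 5.23 TPM (SD, n = 3 each). Ranks 17, 21, 13 and 18 stood at 53.4, 33.4, 27.9 and 26.7 TPM beside 21.1, 13.7, 10.04 and 10.6 TPM. All of these were without overlap between the 3 TCDD and the 3 control libraries. Ranks 7, 13, 18 and 21 had whole-number counts in all 29 libraries (within 0.001), as did rank 10, so no reads had been divided between transcripts for these 5.

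Among the low-level members, the counts behind a similar ratio differed widely. Rank 16, the longest at 10570 bases, went from 1.56 ± 0.0738 TPM in control to 5.32 ± 0.411 TPM with TCDD at 24 h, with at least 446 counts in each TCDD library. Rank 12 (2173 bases) stood at 14.1 ± 1.60 beside 4.75 ± 0.121 TPM, and rank 11 (733 bases) at 12.6 ± 1.14 beside 4.15 ± 1.61 TPM. For rank 11 the controls of 24 h held between 10.2 and 18.0 counts. For ranks 9, 10 and 15 the controls of 24 h held between 2 and 11.3 counts, and the TCDD libraries between 18.4 and 52.5. Their ratios of 3.54, 4.05 and 4.04 are correspondingly imprecise, although the groups did not overlap.

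In 3 members the groups at 24 h overlapped. The rank 6 transcript (647 bases) had 7.83, 14.6 and 0 TPM with TCDD and 1.37, 0 and 3.62 TPM in control, and was at 0 in 14 of the 29 libraries. Rank 14 (646 bases) had 8.23, 6.65 and 2.501 TPM beside 1.89, 2.90 and 0. Rank 19 (928 bases) had 2.87, 7.78 and 11.8 TPM beside 3.19, 2.11 and 2.41 TPM. In each, 1 TCDD library lay within or below the controls. When each of the 15 libraries of 24 h was left out in turn, rank 6 failed the rule in 9 cases, rank 19 in 6, rank 10 in 5, ranks 14 and 20 in 4, and ENSRNOT00000020690 and rank 9 in 3. Ranks 4 and 18 failed in 2, and ranks 7, 11, 12, 17 and 21 in 1. ENSRNOT00000070969, ENSRNOT00000019703, ENSRNOT00000011855 and ranks 3, 13, 15 and 16 met it every time.

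The members were shorter than the transcripts they were drawn from. Their median length was 999 bases (quartiles 666 and 1904), beside 1956 bases (1230 and 3072) over the 13730 transcripts in the control range. With the identical pair counted once, the median was 1174 bases. The transcripts kept by the rule on other scales were longer, with medians of 1266 bases on TPM rescaled by TMM factors (a correction for differences in composition between libraries), 1348 by edgeR on counts and 1782 by edgeR with a covariate for fragment length. All 614 transcripts with an L of at least 1.2 for TCDD had a median of 1486 bases, those raised by acetaminophen alone 1942 and those by gentamicin alone 2406. By length class, members made up 0.718% of the transcripts of 600 to 1000 bases (10 of 1393), where 3 of the 10 were the transcripts of 666 bases. The share was 0.0978% below 600 bases (1 of 1022), 0.130% from 1000 to 2000 (6 of 4631), 0.0412% from 2000 to 4000 (2 of 4856) and 0.109% from 4000 bases upward (2 of 1828). An L of at least 1.2 for TCDD was itself more frequent in short classes: 7.53% below 600 bases, 7.04%, 5.66%, 3.40% and 0.656% in the longest.

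**Figure D3:**
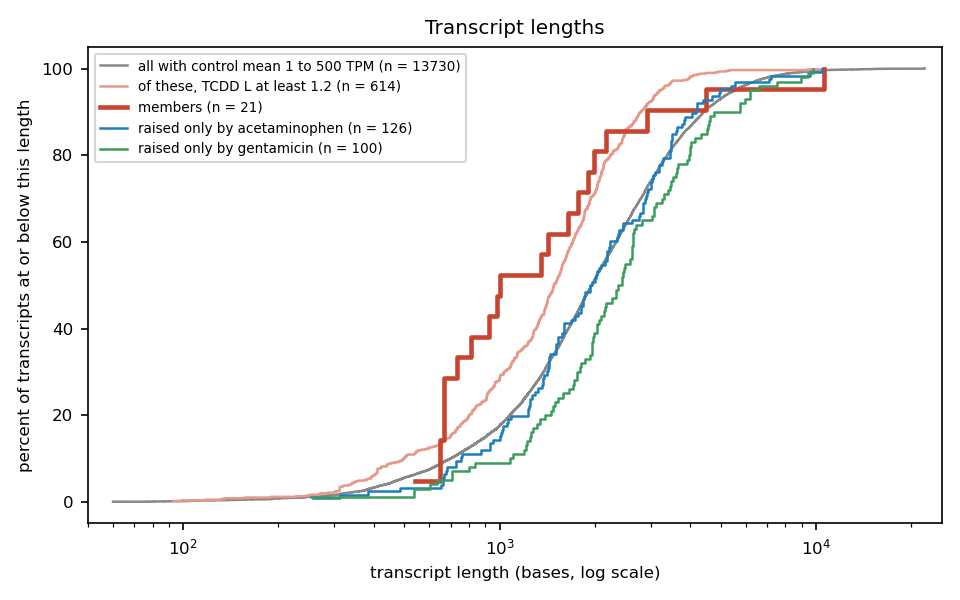
Cumulative share of transcripts (percent) by length (bases, log scale) for the members, the transcripts they were drawn from, those with an L of at least 1.2 for TCDD, and transcripts raised by acetaminophen or gentamicin alone. The members' median is 999 bases against 1956 for all in the control range. Below 600 bases lie 1 of the 21 members and 1022 of the 13730 transcripts in the control range.

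Fragment length also differed between the TCDD and control libraries of 24 h. Taken as transcript length minus effective length, it was 234 ± 3.91 in the TCDD libraries of 24 h (SD, n = 3) and 279 ± 9.60 in the controls of that time, without overlap. The other compounds at 24 h had means between 254 and 262 bases, and acetaminophen replicate 2, at 233 bases, lay within the TCDD range of 230 to 238. The median L for TCDD also changed with length, from -0.62 below 600 bases and -0.19 between 1000 and 2000 to -0.89 from 4000 bases upward. The part of fragment length in the choice of members was not tested.

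The size of the TCDD difference and the membership both depended on the scale. In the edgeR fit to counts, the members' log2 changes for TCDD at 24 h ran from 1.72 to 3.05 with a median of 2.15, where the median over all tested transcripts was 0.02. All 21 members passed 1.2 on this scale, but only 18, 14 and 15 stayed within 0.5 for acetaminophen, gentamicin and trichloroethylene. The members' median change with gentamicin at 24 h was 0.36, beside -0.05 over all tested transcripts. With a covariate for mean fragment length, the TCDD changes ran from 0.99 to 4.96 with a median of 2.03, and 18 members passed 1.2. The value of 4.96 was that of rank 14, whose counts were low and whose groups overlapped, and ENSRNOT00000020690 followed at 3.62. The covariate was fitted beside the group terms, so its slope rests on differences within groups. It was applied across fragment lengths that did not overlap between TCDD and control at 24 h. The rule applied to the edgeR values would have kept 70 transcripts, 7 of them members, and with the covariate 63, of which 6 were members. On TPM rescaled by TMM factors it would have kept 67, of which 18 were members.

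**Figure D4:**
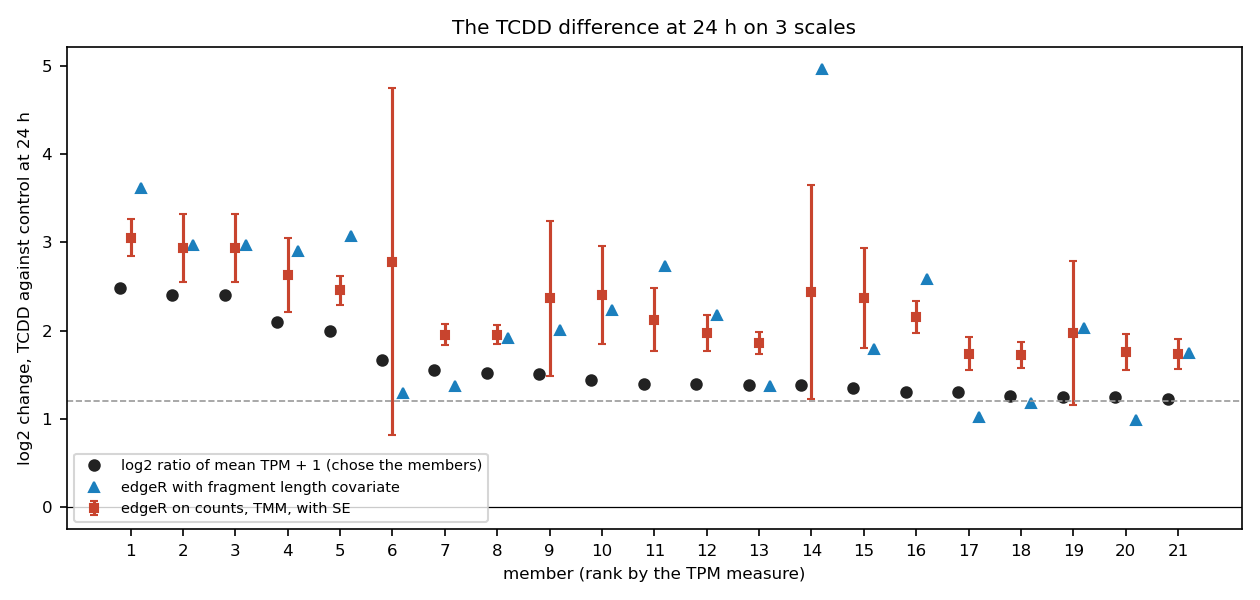
Log2 change of each member (x axis, by rank) for TCDD against control at 24 h on 3 scales: the TPM measure that chose the members, edgeR on counts with its SE, and edgeR with the fragment length covariate. The dashed line is 1.2; edgeR on counts lies above the TPM measure for all 21, and the covariate lowers 3 members below the line.

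Whether the members already differed at 6 h could be tested, since those treated libraries had no part in the rule. The 6 h controls entered only through the range of 1 to 500 TPM. With TCDD at 6 h, 0 of the 21 members passed the edgeR test against control, as did 0% of all tested transcripts. By DESeq2 and by limma on log2(TPM + 1) the count was also 0. In the edgeR fit 1 member, ENSRNOT00000020690, had an unadjusted p under 0.05. Its log2 change was 0.62 ± 0.27 (SE, edgeR adjusted p = 0.70), with 5.81, 7.25 and 7.02 TPM beside 4.48 and 3.38 TPM in control. All 3 TCDD libraries lay above both controls, but so did the mean of every other compound at 6 h, at 5.27 to 6.22 TPM. Over the members, the median edgeR change with TCDD at 6 h was 0.25, beside 0.03 over all tested transcripts. In 6 members all 3 TCDD libraries lay above both controls, against 34.2% of the tested transcripts, and in 0 members below both, against 5.63%.

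The 3 transcripts of 666 bases split by library at 6 h. ENSRNOT00000070969 measured 278 TPM in TCDD replicate 1 but 1025 and 1014 TPM in replicates 2 and 3, with controls at 488 and 368 TPM. The rank 4 transcript gave 213, 899 and 938 TPM beside 469 and 348 TPM. Replicate 1 thus lay below both controls and the other replicates at more than 2 times the higher control for ENSRNOT00000070969. Replicates 2 and 3 were both at least 2-fold over replicate 1 in 1.41% of 13724 tested transcripts with a mean of at least 1 TPM in these libraries, a pattern looked for after these 3 were seen. Against control the edgeR log2 change was 0.69 ± 0.42 (SE) for ENSRNOT00000070969 (adjusted p = 0.72) and 0.57 ± 0.45 for rank 4 (adjusted p = 0.75). Single libraries moved these values both ways. For ENSRNOT00000070969 the change was 1.08 without TCDD replicate 1, 0.38 without replicate 2 and 0.51 without replicate 3, and for rank 4 it was 0.99, 0.27 and 0.35. None of these fits gave a call.

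Compounds were then compared directly at 6 h. Against gentamicin, 1 of 21 members passed for TCDD, where 16.1% of all tested transcripts did (7.24% higher and 8.84% lower). It was rank 21 (999 bases), with 15.7, 16.1 and 17.5 TPM beside 11.7, 9.88 and 10.96 TPM, a log2 difference of 0.57 ± 0.18 (SE, edgeR adjusted p = 0.033). The groups did not overlap, but the call was lost without any of TCDD replicates 1, 2 and 3 or gentamicin replicates 2 and 3. ENSRNOT00000070969 differed by 0.93 ± 0.37 and rank 4 by 0.93 ± 0.40 (SE, edgeR adjusted p = 0.095 and 0.13). Without TCDD replicate 1, the library with low values of these transcripts, the calls were the 3 transcripts of 666 bases in place of rank 21 (differences of 1.32 and 1.34). That library stands out by the values tested here, so no p-value is given for this fit. Against trichloroethylene 0 members passed by edgeR, DESeq2 or limma, as did 0% of all transcripts by edgeR. In the edgeR fit 5 members had an unadjusted p under 0.05.

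Against acetaminophen, 6 of 21 members passed at 6 h, 2 higher and 4 lower with TCDD. Of all tested transcripts 54.9% passed, 27.9% higher and 27% lower. Ranks 7, 18, 20 and 13 were lower with TCDD, with log2 differences of -0.57, -0.51, -0.67 and -0.34 (edgeR adjusted p = 0.00017, 0.0038, 0.0094 and 0.026). ENSRNOT00000019703 was higher by 0.45 ± 0.17 (SE, edgeR adjusted p = 0.025) and ENSRNOT00000011855 by 0.25 ± 0.10 (edgeR adjusted p = 0.0497). Rank 7 kept its call in all 16 alternatives run. The call of ENSRNOT00000011855, close to the threshold by edgeR, was lost in 10 of 16, among them DESeq2, the replicate block (adjusted p = 0.057) and the fragment length covariate, which left the difference at 0.26 (edgeR adjusted p = 0.053). By limma on log2(TPM + 1) the difference of this transcript was larger and kept its call, at 0.445 (limma adjusted p = 6.1e-05). For ENSRNOT00000019703 the covariate gave 0.28 (edgeR adjusted p = 0.11), and its call was lost in 4 of 16 alternatives. Rank 13 lost its call in 6 of 16 alternatives, with -0.22 under the covariate (edgeR adjusted p = 0.085) and -0.15 by limma on log2(TPM + 1) (adjusted p = 0.28). Rank 18 lost it under both limma fits (-0.31 and -0.33), and rank 20 without acetaminophen replicate 2 or TCDD replicate 3. The count fell from 6 to 2 without acetaminophen replicate 2 or TCDD replicate 3, and to 3 without acetaminophen replicate 1 or with the covariate. ENSRNOT00000070969 differed by 0.64 ± 0.37 and rank 4 by 0.76 ± 0.40 (SE, edgeR adjusted p = 0.15 and 0.12).

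**Figure D5:**
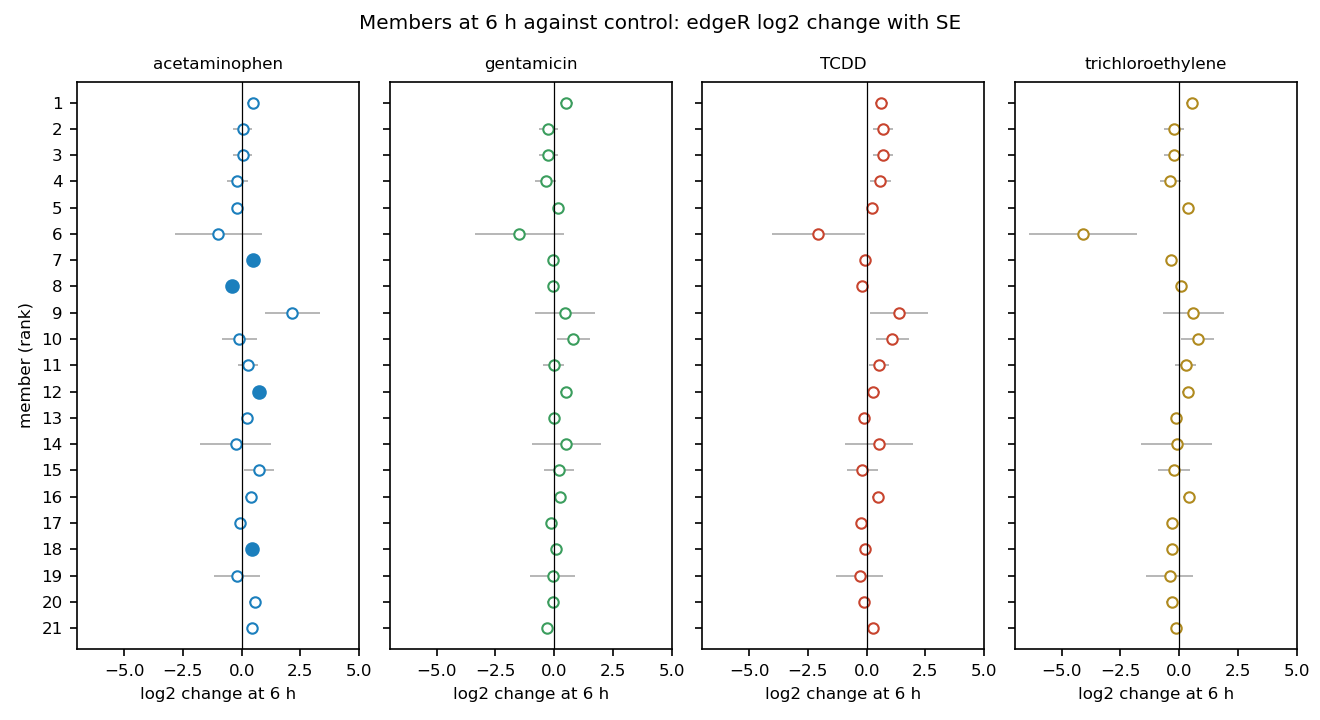
EdgeR log2 change (x axis) of each member (y axis, by rank) against control at 6 h for the 4 compounds, with SE. Filled points passed at an adjusted p under 0.05: 4 members with acetaminophen and none with the other compounds, and rank 6 has the widest errors.

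With acetaminophen at 6 h, 4 of 21 members passed against control, 3 higher and 1 lower. Over all tested transcripts 48.8% passed, 24.2% higher and 24.5% lower. ENSRNOT00000011855 fell, from 86.6 and 86.4 TPM in control to 57.5, 59.3 and 68.3 TPM, or -0.43 ± 0.11 on the log2 scale (SE, edgeR adjusted p = 0.0031). By 24 h its mean with acetaminophen was 98.3 TPM beside 91.8 TPM in control. Rank 7 rose from 50.1 and 50.2 TPM to 68.7, 68.6 and 64.5 TPM (log2 change 0.48 ± 0.13, edgeR adjusted p = 0.0034). Rank 12 rose by 0.73 ± 0.25 and rank 18 by 0.45 ± 0.16 (edgeR adjusted p = 0.018 and 0.022). The rise of rank 12 did not pass without acetaminophen replicate 3 or either control, nor that of rank 18 without acetaminophen replicate 3 or control replicate 3, with the fragment length covariate (0.32, edgeR adjusted p = 0.059) or by limma with a pseudocount of 0.1 (adjusted p = 0.0501). ENSRNOT00000019703 stood at -0.21 ± 0.19 on the log2 scale against control (SE, edgeR adjusted p = 0.37), with all 3 acetaminophen libraries (10.3 to 11.8 TPM) below both controls (12.6 and 13.6 TPM). With only these groups in the fit its edgeR adjusted p was 0.027. All 3 acetaminophen libraries lay above both controls in 8 members, against 32.5% of the tested transcripts, and below both in 2, against 38.9%.

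Gentamicin and trichloroethylene left the members without a call at 6 h. By edgeR 0 of 21 passed for gentamicin, where 13.2% of all tested transcripts did (8.34% higher and 4.88% lower), and DESeq2 and limma also gave 0. No member had an unadjusted edgeR p under 0.05 for gentamicin. For trichloroethylene 0 of 21 passed by each tool, as did 0% of all tested transcripts by edgeR, and 2 members had an unadjusted edgeR p under 0.05. All 3 gentamicin libraries lay above both controls in 3 members (34.9% of the tested transcripts) and below both in 0 (13.4%). All 3 trichloroethylene libraries lay above both controls in 6 members (37.2%) and below both in 2 (10.2%).

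L of control between 24 h and 6 h had a median of 0.08 over the members (range -2.24 to 1.04), beside 0.16 over all transcripts in the control range. Rank 6, with its uneven counts, gave the lowest value. Between the TCDD groups of 24 h and 6 h, L ran from 0.98 to 2.59 with a median of 1.35. The 24 h libraries in both of these comparisons chose the members, so neither was tested.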

How the data were processed

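The 29 RNA-seq libraries had been quantified with kallisto 0.43, per the submitters' processing notes. The authors deposited, for each library and transcript, an estimated count, a TPM value, a length and an effective length, per the file headers. Transcript set, genome build, strandedness and trimming: not given in the sources used here. Of the estimated counts, 19.6% were not whole (tolerance 0.001), since kallisto divides reads between matching transcripts. Near-identical transcripts are therefore uncertain.

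The members and lists were chosen with earlier results of these data known. The choice used mean TPM with a pseudocount of 1. Counts were rounded, and transcripts passing the filterByExpr filter of edgeR 4.0.16 (minimum count 10) were kept, 15990 of 28420, all members included. The main test was edgeR's quasi-likelihood test with robust dispersion and TMM factors over all 10 groups. Benjamini-Hochberg adjustment covered all transcripts tested, at 0.05. A standard error is the size of the log2 change divided by the square root of F. The procedure was also run on counts simulated from the 6 h controls. These held no effect of fragment length and far fewer changed transcripts than passed in the acetaminophen comparisons. That run therefore cannot show how the test behaves under the conditions of these data. Only comparisons at 6 h were tested, since the rule used those at 24 h. Alternatives were DESeq2 1.42.0, limma 3.58.1 on log2(TPM + 1) and with a pseudocount of 0.1, other size factors, no filter, a fragment length covariate, a replicate block, fits of the compared groups alone and leaving out each library. Identifiers printed are the 2 members with the largest L for TCDD among those with at least 10 estimated counts in every TCDD library of 24 h, and the 2 with the smallest edgeR p among those lower with acetaminophen at 6 h. Others are called by rank. Planned gene lists and cell type markers were not used, as no gene names could be matched.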

Additional observations from a re-analysis of the deposited data

Results flagged for a closer look

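At 6 h, 7 differences between compounds passed the direct edgeR test among the members. Against acetaminophen, TCDD differed in ENSRNOT00000019703 by 0.45 on the log2 scale, in ENSRNOT00000011855 by 0.25, and in ranks 7, 13, 18 and 20 by -0.57, -0.34, -0.51 and -0.67. Against gentamicin, rank 21 differed by 0.57. The call of ENSRNOT00000011855 was lost in 10 of 16 alternatives, that of rank 13 in 6 and that of rank 21 in 5. That of ENSRNOT00000019703 was lost in 4, and those of ranks 18 and 20 in 2 each. Over all tested transcripts 54.9% and 16.1% passed in these comparisons. No group held 4 or more libraries, so single libraries were not screened for outlying values.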

How the results depend on the processing

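On other scales the rule kept 67 transcripts (TPM rescaled by TMM factors), 70 (edgeR on counts) and 63 (edgeR with the fragment length covariate), in place of 21, with 18, 7 and 6 of the members among them. A pseudocount of 5 kept 22 transcripts, 7 of them members, and 0.1 kept 14, of which 13 were members. Leaving out 1 library of 24 h at a time it kept 18 to 27 transcripts, with 14 to 20 of the members, with median lengths of 963.5 to 1639 bases. Members called at 6 h for TCDD against acetaminophen were 6, and 3 with the fragment length covariate. Without 1 library at a time the calls ran from 2 to 8 for TCDD against acetaminophen, 0 to 3 for TCDD against gentamicin and 2 to 5 for acetaminophen against control. They ran from 0 to 0 for the other comparisons. With only the compared groups fitted, trichloroethylene against control had 1 call in place of 0. The cause of these shifts was not tested. The 6 h changes of single members that were listed for each alternative kept their sign in every one. Those of ranks 2 and 4 against gentamicin and acetaminophen were listed only for the main fit and without TCDD replicate 1. At 24 h small changes could change sign between scales: with acetaminophen, ENSRNOT00000011855 had an L of 0.098 and -0.053 by edgeR, and ENSRNOT00000020690 had 0.046 and -0.12. No pairing by replicate number was seen: correlations of same-numbered libraries ran from -0.19 to 0.084 over 20 pairs, and 7 of 20 were highest with their own number. With so few libraries per group, this check cannot show that the samples were unpaired. With the replicate block the calls were 5 for TCDD against acetaminophen, 1 for TCDD against gentamicin, 4 for acetaminophen against control and 0 for the others. Low counts limit ranks 6, 9, 10, 11, 14, 15 and 19.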
